A study of Mus musculus with 14 samples.

Results

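The Notch pathway genes described here were 10 genes named beforehand: the receptors Notch1, Notch2, Notch3 and Notch4, the ligands Jag1, Jag2, Dll1 and Dll4, and the targets Hes1 and Hey1. They were found by their Ensembl identifiers among the 56941 genes of a bulk RNA-seq count table of mouse aortic valve leaflets, and all 10 passed the filter on low counts that left 19145 genes for testing. The table held 14 libraries from C57BL/6 wild type male mice (C57BL/6J in the design text) that were 8 weeks old at the start and fed a Western diet throughout. The 4 Ctrl mice were untreated, the 4 AngII mice received angiotensin II at 1000 ng/kg/min from an osmotic pump for 28 days, and the 4 AngII+LY mice received the same infusion together with LY272015, which blocks the serotonin receptor HTR2B, at 3 mg/kg. The 2 LY mice received LY272015 alone, and further LY mice that the design text mentions are not analysed here. The study asked how angiotensin II remodels the valve and what blocking HTR2B does to that remodeling. The labels place the infused mice 48 h after pump removal, where the methods describe pump removal for a subset. The labels and methods differ on the injection schedule, and 4 of the 6 LY272015 labels carry another compound number while their titles place them in the same groups.

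Notch receptors are membrane proteins that bind Jagged and Delta-like ligands on a neighbouring cell. Binding exposes the receptor to the protease ADAM10 and then to gamma-secretase, and the released intracellular part enters the nucleus, joins the DNA-binding protein RBPJ and Mastermind proteins, and switches on targets such as the HES and HEY repressors. In the aortic valve the pathway is known for its part in endothelial to mesenchymal transition during valve formation, and mutations of NOTCH1 are a known cause of bicuspid and calcified valves.

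Before the levels, the promoter of Hes1 is shown, as that of a direct target of the pathway. The 250 bases before the start of its canonical GENCODE transcript (GRCm39, chr16:29883877-29884126, plus strand) were searched on both strands for the letters of the core RBPJ motif, TGGGAA or its reverse complement TTCCCA. They held 2 matches, whose first letters are 49 and 35 bases before the start. The capitals mark the matches.
Hes1: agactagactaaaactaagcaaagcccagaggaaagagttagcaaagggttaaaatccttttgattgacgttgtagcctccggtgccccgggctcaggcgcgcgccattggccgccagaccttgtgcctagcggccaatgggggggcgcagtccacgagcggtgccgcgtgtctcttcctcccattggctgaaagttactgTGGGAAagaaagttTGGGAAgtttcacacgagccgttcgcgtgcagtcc
Of 21770 promoter windows of this length, 22.7% held at least 1 match on either strand and 3.06% held 2 or more. A match of letters is a description and not a measured binding site.

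The libraries held 20990655 to 73128220 counts, and the 4th AngII library was the smallest. The libraries also differed in how counts depended on gene GC content. The slope ran from 0.00 to 0.38 log2 units per 10 GC points in Ctrl and from -0.87 to -0.07 in AngII, with the lowest value in the 4th AngII library. It ran from -0.16 to 0.25 in AngII+LY and from 0.04 to 0.14 in LY. The mitochondrial share of a Ctrl library lay between 4.00% and 7.52%, that of an LY library between 8.62% and 9.76%, that of an AngII library between 9.83% and 25.5%, and that of an AngII+LY library between 10.1% and 20.2%. The Notch genes were mostly GC-rich: the exons of Jag2 held 61.3% GC and those of Hes1 60.1%, against a median of 48.6% over the tested genes, while Jag1 with 49% and Hey1 with 50% were near that median. Differences are therefore given from the counts and, where it matters, after a smooth GC trend (loess) was removed from each library. This correction moved the median log2 fold change of all genes from -0.06 to 0.09 in AngII against Ctrl and from -0.02 to 0.17 in AngII+LY against Ctrl. "Relative to all genes" below means after subtracting that median. All 12 endothelial, 9 smooth muscle and pericyte, 8 interstitial and 9 cardiomyocyte marker genes were detected in every library. In bulk samples, fewer cells of a type and less RNA per cell cannot be told apart.

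Per kilobase of exon, Hes1 had the highest normalized count (count scaled to a common library size) of the 10 genes in every group. In Ctrl it stood at 920 ± 125 (SD, n = 4), apart from Jag1 at 510 ± 172, Dll1 at 474 ± 187, Notch1 at 376 ± 169 and Hey1 at 299 ± 61.3. Below these, Jag2 stood at 164 ± 48.8, Notch2 at 163 ± 31.5, Notch4 at 155 ± 38.3 and Dll4 at 124 ± 48.7. Notch3 was the lowest at 60.6 ± 44.2. Except for Hes1 and Jag1, each gene in this order overlapped with its neighbour in Ctrl. In AngII, Jag1 averaged 850 ± 311 per kilobase, overlapped with Hes1 at 904 ± 178, and stood apart from Dll1, the next gene, at 312 ± 134. In AngII+LY, Jag2 at 340 ± 109 followed Jag1 at 546 ± 113 and overlapped with it, and Notch4 at 302 ± 117 per kilobase was the receptor with the highest mean.

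**Figure D1:**
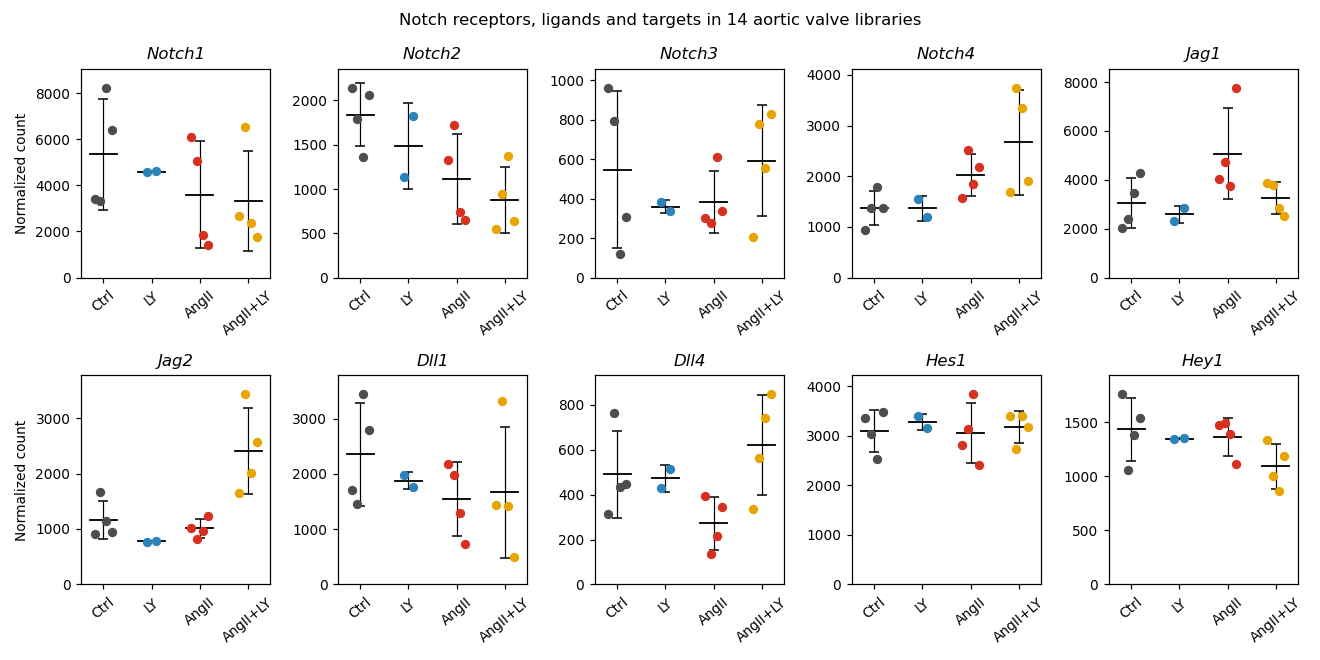
Normalized counts of the 10 Notch genes by group, one point for each of the 14 libraries, with the group mean (line) and SD (bar) on linear axes that start at 0. The 4 AngII+LY points of Jag2 lie between 1646 and 3426, above every AngII point, while the groups of Hes1 overlap throughout.

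Among the ligands, Jag2 and Dll4 had the largest differences of the 10 genes between AngII+LY and AngII, with Jag2 ahead from the counts and Dll4 after the GC correction. JAG2 is a Jagged ligand of the Notch receptors (chromosome 12, 112871421 to 112893437, ENSMUSG00000002799). Its normalized counts were 911, 1658, 1141 and 937 in the Ctrl mice, 768 and 787 in the LY mice, 1021, 823, 964 and 1238 in the AngII mice, and 1646, 3426, 2016 and 2560 in the AngII+LY mice. Every AngII+LY mouse was above every AngII mouse, and both LY mice were below every Ctrl mouse. Groups of these sizes did not overlap for 11.1% of all tested genes in AngII+LY against AngII, 5.45% with AngII+LY higher, and for 12% in LY against Ctrl. The fold in AngII+LY against AngII was 2.39 (log2 1.26, SE 0.26). The unadjusted p was 0.000229 and the adjusted p 0.0588 in edgeR's quasi-likelihood test, and the adjusted p was 0.000798 in DESeq2. In edgeR the smallest adjusted p of all genes in this comparison was 0.0568, so a value near the threshold was not particular to Jag2. Against Ctrl the log2 difference of AngII+LY was 1.05 (SE 0.25, adjusted p 0.199 in edgeR and 0.0089 in DESeq2).

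The size of the Jag2 difference depended on the GC correction. After it the log2 difference of AngII+LY against AngII was 0.72 (adjusted p 0.275 in edgeR and 0.17 in DESeq2), or 0.68 relative to all genes, and the 4th AngII mouse, at 2336 corrected counts, overlapped with AngII+LY mice at 1791 to 2973 (corrected counts of 7.43% of all tested genes did not overlap). Without that library and without the correction, the log2 difference was 1.37. Jag2 in AngII against Ctrl was at -0.20 (SE 0.25) from the counts and 0.56 after the correction, so no direction is given for it. Against Ctrl the corrected difference was 1.28, or 1.11 relative to all genes, and there the groups did not overlap, as for 9.92% of all tested genes after the correction. Relative to the mean of the 12 endothelial markers and without the correction, Jag2 was at log2 -2.28 to -1.32 in AngII+LY and -3.43 to -2.67 in AngII. The means were -1.80 and -3.07, and with the correction -1.91 ± 0.38 and -2.81 ± 0.64 (SD, n = 4). The share of all genes that separate on this scale was not computed. Genes of other cell types differed between the same mice. The mean log2 level of the 8 interstitial markers was 14.40 to 15.05 in AngII+LY and 15.54 to 15.95 in AngII, and that of the 9 cardiomyocyte markers was 16.02 to 17.30 against 14.75 to 16.23. The summed counts of the interstitial list were 0.497% to 0.899% of AngII+LY libraries and 1.2% to 1.80% of AngII libraries, and those of the cardiomyocyte list 1.92% to 3.97% against 0.760% to 1.54%. Across the 14 libraries, which share their depth and tissue make-up, Jag2 had a Pearson r of -0.87 with the interstitial mean and 0.65 with the cardiomyocyte mean, and -0.65 and 0.33 after subtracting group means. The part of these cells in the Jag2 difference was not tested.

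Jag1, the most abundant ligand per kilobase, had the largest positive difference of the ligands in AngII against Ctrl, and a negative one in AngII+LY against AngII. JAG1 is the Jagged ligand known for its role in endothelial and smooth muscle cells (chromosome 2, 136923373 to 136958693, ENSMUSG00000027276). Normalized counts were 2042, 2385, 3441 and 4288 in Ctrl, 2328 and 2839 in LY, 4017, 4730, 3742 and 7776 in AngII, and 3854, 3800, 2858 and 2512 in AngII+LY. A single Ctrl mouse, the 4th, reached into the AngII range, and the 4th AngII mouse stood highest by far. The fold in AngII against Ctrl was 1.67 (log2 0.74, SE 0.28), with an unadjusted p of 0.0188 and an adjusted p of 0.126 in edgeR and 0.0468 in DESeq2. The log2 difference of AngII+LY against AngII was -0.64 (SE 0.28), with an unadjusted p of 0.0373 and an adjusted p of 0.194 in edgeR. Without the 4th AngII library the first difference was 0.45 (unadjusted p 0.0927) and the second -0.36 (unadjusted p 0.179), both in edgeR, and DESeq2 gave the first an adjusted p of 0.256. After the GC correction the AngII and Ctrl groups did not overlap (nor did they for 8.87% of all tested genes), with 0.96 on the log2 scale, or 0.86 relative to all genes (edgeR adjusted p 0.161), and AngII+LY against AngII stayed at -0.63.

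Dll4, a Delta-like ligand of endothelial tip cells and arteries, was the ligand with the fewest counts. Its normalized counts were 313, 764, 434 and 449 in Ctrl, 431 and 515 in LY, 392, 137, 216 and 347 in AngII, and 335, 562, 740 and 846 in AngII+LY. The AngII mice were mostly low and the AngII+LY mice mostly high, with overlap of AngII with both Ctrl and AngII+LY. The log2 difference was -0.85 (SE 0.39, edgeR unadjusted p 0.0473, adjusted p 0.193) in AngII against Ctrl, and 1.19 (SE 0.39, edgeR unadjusted p 0.009, adjusted p 0.108) in AngII+LY against AngII. DESeq2 gave the second an adjusted p of 0.0322. After the GC correction the values were -0.17 and 0.76 (edgeR adjusted p 0.906 and 0.381), and DESeq2 gave the second an adjusted p of 0.278. Across the 14 libraries Dll4 had a Pearson r of 0.65 with the cardiomyocyte mean and -0.66 with the interstitial mean, and 0.60 and -0.56 after subtracting group means. The part of these cells in the Dll4 differences was not tested. Of the Dll4 exons, 15.6% overlap with Gm14207 on the other strand, and whether the counting used strand is not given in the sources used here.

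Dll1, the other Delta-like ligand, had counts of 1710, 1464, 3438 and 2802 in Ctrl, 1984 and 1766 in LY, 2180, 1978, 1295 and 728 in AngII, and 1439, 3311, 1414 and 497 in AngII+LY. The spread within Ctrl, AngII and AngII+LY was wide, and no group stood apart. The log2 difference was -0.60 (SE 0.47) in AngII against Ctrl and 0.10 (SE 0.47) in AngII+LY against AngII, with edgeR adjusted p of 0.452 and 0.927, and it was -0.12 and -0.10 after the GC correction. Fam120b overlaps 27.6% of the Dll1 exons on the other strand.

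As a share of the 4 ligands summed per kilobase, which removes what the ligands have in common, Jag1 held 39.6% ± 5.06 (SD, n = 4) in Ctrl, 60.8% ± 11.1 in AngII and 40.5% ± 7.87 in AngII+LY. The 4 AngII mice, at 49.7% to 76.1%, were above the 4 Ctrl mice at 35.7% to 47.0%, and a single AngII+LY mouse, at 51.6%, reached into the AngII range. Jag2 held 13.6% ± 5.40 in Ctrl, 10.5% ± 1.63 in AngII and 24.9% ± 6.01 in AngII+LY. All AngII+LY mice, at 18.5% to 32.9%, were above all AngII mice, at 8.64% to 12.6%. With GC-corrected counts the same separations held. Jag1 was at 49.8% to 65.8% in AngII against 39.9% to 46.3% in Ctrl. Jag2 was at 19.2% to 31.6% in AngII+LY against 8.84% to 15.7% in AngII. The corrected Jag1 share of AngII+LY, at 35.1% to 48.9%, also lay below that of AngII. Dll1 held 36.7% ± 7.75 in Ctrl, 23.7% ± 10.7 in AngII and 22.5% ± 10.4 in AngII+LY, with overlap. Dll4 held 10.2% ± 4.77, 5.03% ± 1.93 and 12.2% ± 6.20 in the same groups.

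**Figure D2:**
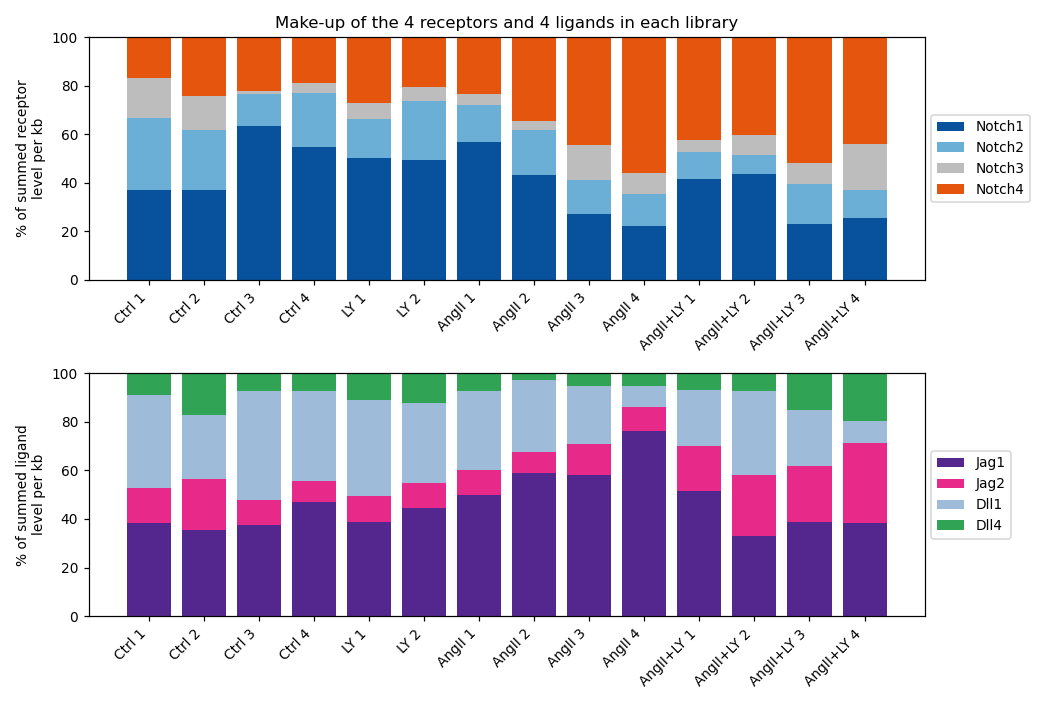
Stacked bars for each library of the percent that each receptor (top) and each ligand (bottom) held of the summed receptor or ligand level per kilobase of exon. The Jag1 segment is at least 49.7% in every AngII library and at most 47.0% in Ctrl, and the Notch4 segment is at least 40.3% in every AngII+LY library and at most 24.4% in Ctrl.

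Among the receptors, Notch4, the receptor known from endothelial cells (chromosome 17, 34783220 to 34807477, ENSMUSG00000015468), had higher means in both infused groups. Normalized counts were 948, 1375, 1779 and 1375 in Ctrl, 1545 and 1192 in LY, 1564, 2513, 1851 and 2181 in AngII, and 1685, 3751, 3346 and 1898 in AngII+LY. The 3rd Ctrl mouse overlapped with the lowest mouse of each infused group. The fold in AngII+LY against Ctrl was 1.95 (log2 0.96, SE 0.28), with an unadjusted p of 0.00377 and an adjusted p of 0.265 in edgeR and 0.0333 in DESeq2. In AngII against Ctrl the log2 difference was 0.57 (SE 0.28, edgeR unadjusted p 0.0601, adjusted p 0.217). After the GC correction it was 1.28, or 1.19 relative to all genes, with an adjusted p of 0.137 in edgeR and 0.00944 in DESeq2. Neither infused group then overlapped with Ctrl. Corrected counts did not overlap for 8.87% of all tested genes in AngII against Ctrl and for 9.92% in AngII+LY against Ctrl. AngII+LY against AngII was 0.40 (SE 0.28) from the counts and -0.07 after the correction, so no direction is given for it.

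Notch1 and Notch2 had lower means in the infused groups. Notch1 had counts of 3397, 3341, 8245 and 6409 in Ctrl, 4592 and 4607 in LY, 6092, 5072, 1827 and 1396 in AngII, and 2666, 6514, 2377 and 1758 in AngII+LY. Both infused groups held mice as high as Ctrl and mice below every Ctrl mouse. Its log2 difference was -0.57 (SE 0.50) in AngII against Ctrl and -0.68 (SE 0.50) in AngII+LY against Ctrl, with edgeR adjusted p of 0.504 and 0.669, and it was -0.15 and -0.42 after the GC correction. Without the 2nd AngII+LY library the latter was -1.21 (edgeR unadjusted p 0.0263, adjusted p 0.309). Notch2, a broadly expressed receptor, had counts of 2146, 1792, 1360 and 2065 in Ctrl, 1141 and 1825 in LY, 1323, 1727, 740 and 645 in AngII, and 553, 941, 1376 and 636 in AngII+LY. The lowest Ctrl mouse was in reach of the highest AngII+LY mouse, and the other AngII+LY mice lay below it. Across the 14 libraries Notch2 had a Pearson r of 0.55 with the interstitial mean and -0.56 with the cardiomyocyte mean. After subtracting group means these were 0.47 and -0.44. The part of these cells in the Notch2 differences was not tested. The log2 difference of Notch2 was -1.07 (SE 0.35, edgeR unadjusted p 0.00866, adjusted p 0.307) in AngII+LY against Ctrl and -0.77 after the GC correction, and -0.73 (SE 0.35, edgeR unadjusted p 0.0559, adjusted p 0.21) in AngII against Ctrl and -0.27 after it.

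Notch3, the receptor of smooth muscle cells and pericytes, had counts of 963, 794, 118 and 309 in Ctrl, 384 and 336 in LY, 303, 278, 612 and 338 in AngII, and 207, 778, 556 and 827 in AngII+LY. Ctrl alone spanned from the lowest to the highest of the 14 libraries. The log2 difference was -0.51 (SE 0.56) in AngII against Ctrl from the counts and 0.25 after the GC correction. The first Ctrl library also had the highest mean of the 9 smooth muscle and pericyte markers, which took 0.907% of its counts against 0.0377% in the lowest Ctrl library. Across the 14 libraries the Pearson r of Notch3 with that mean was 0.78 (Spearman rho 0.78), and 0.85 after subtracting group means.

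The 4 receptors were taken as shares of their sum per kilobase in the same way, so here too a share can rise because others fall. Mean levels per kilobase in AngII+LY and Ctrl were 234 and 376 for Notch1, 77.8 and 163 for Notch2, 65.7 and 60.6 for Notch3, and 302 and 155 for Notch4. Of the receptor sum, Notch1 held 48.0% ± 13.2 (SD, n = 4) in Ctrl, 37.4% ± 15.6 in AngII and 33.4% ± 10.7 in AngII+LY. Notch4 held 20.5% ± 3.40 in Ctrl, 39.6% ± 14 in AngII and 44.6% ± 5.05 in AngII+LY. All AngII+LY mice, at 40.3% to 51.9%, were above all Ctrl mice, at 16.7% to 24.4%, and the AngII mice at 23.4% to 56.1% overlapped with both. The same separation held with GC-corrected counts, at 39.3% to 51.1% against 16.3% to 24.1%. Of the 8 receptor and ligand shares, 1 did not overlap between groups in each of AngII against Ctrl, AngII+LY against AngII and AngII+LY against Ctrl. In LY against Ctrl it was 0. With GC-corrected counts it was 1, 2, 1 and 0 of 8 in these 4 comparisons. For single genes the groups did not overlap for 15.0%, 11.1%, 8.16% and 12% of all tested genes in these comparisons, and 8.87%, 7.43%, 9.92% and 11.3% after the GC correction.

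The targets Hes1 and Hey1 encode transcriptional repressors, and the groups of both overlapped in every comparison. Hes1 had counts of 3367, 3038, 2539 and 3479 in Ctrl, 3398 and 3166 in LY, 2817, 3145, 3836 and 2412 in AngII, and 3398, 2730, 3411 and 3182 in AngII+LY. The groups lay within each other, and the log2 difference was -0.02 (SE 0.17) in AngII against Ctrl, 0.06 (SE 0.17) in AngII+LY against AngII and 0.03 (SE 0.17) in AngII+LY against Ctrl. After the GC correction the difference in AngII against Ctrl was 0.65 (edgeR unadjusted p 0.0111, adjusted p 0.2), or 0.56 relative to all genes, and that in AngII+LY against AngII was -0.36 (edgeR adjusted p 0.466). Hey1 had counts of 1759, 1061, 1381 and 1541 in Ctrl, 1349 and 1353 in LY, 1473, 1498, 1389 and 1112 in AngII, and 1337, 1000, 861 and 1186 in AngII+LY. The AngII+LY mice were mostly below the others, with overlap. Across the 14 libraries Hey1 had a Pearson r of 0.72 with the interstitial mean and -0.66 with the cardiomyocyte mean. After subtracting group means these were 0.54 and -0.45. The part of these cells in the Hey1 differences was not tested. The log2 difference of Hey1 was -0.07 (SE 0.20) in AngII against Ctrl, 0.19 after the GC correction, and -0.32 (SE 0.20, edgeR adjusted p 0.364) in AngII+LY against AngII, -0.35 after it.

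**Figure D3:**
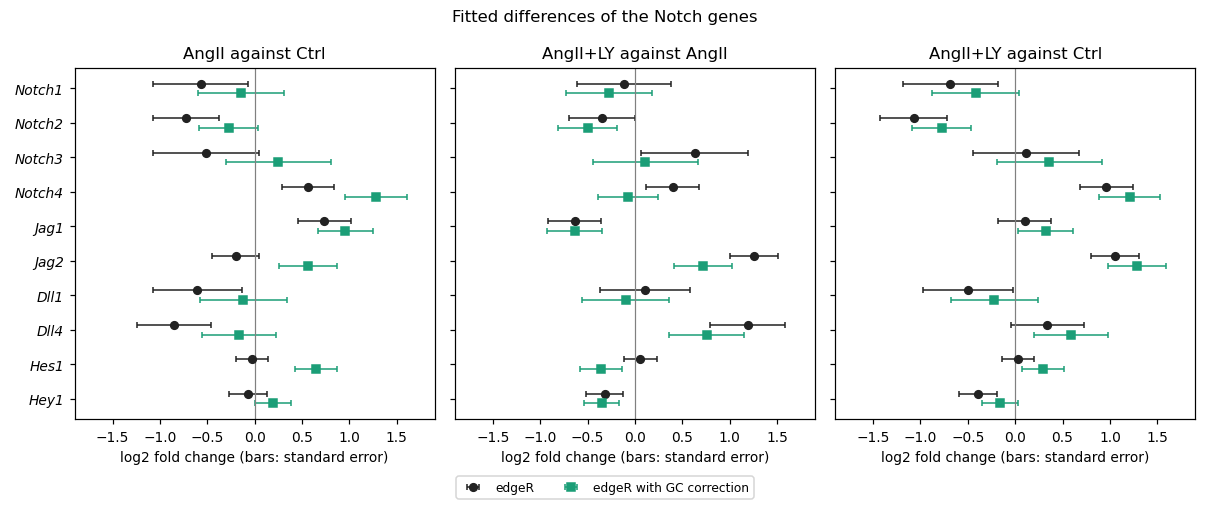
Fitted log2 fold changes (points) with their standard errors (bars) of the 10 Notch genes in 3 comparisons, from the counts and after the GC correction. Jag2 in AngII+LY against AngII goes from 1.26 to 0.72 with the correction, Notch4 in AngII against Ctrl from 0.57 to 1.28, and Hes1 in AngII against Ctrl from -0.02 to 0.65.

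Counted over the 10 genes, 0 passed an adjusted p of 0.05 with an absolute log2 fold change above 0.5 in edgeR in any comparison, as did 0 of all genes (0%). At an unadjusted p under 0.05, 2 of 10 stood in AngII against Ctrl (Jag1 higher, Dll4 lower), where 25.2% of all tested genes did, 13.4% higher and 11.7% lower. In AngII+LY against AngII it was 3 of 10 (Jag2 and Dll4 higher, Jag1 lower), beside 22.5%, 10.1% higher and 12.4% lower. It was 3 of 10 in AngII+LY against Ctrl (Jag2 and Notch4 higher, Notch2 lower), beside 11%, and in LY against Ctrl 0 of 10, beside 1.39%. After the GC correction it was 3, 2 and 3 of 10 in the first 3 comparisons, beside 14.2%, 15.5% and 15.2%. DESeq2 gave 4 of 10 in AngII against Ctrl, beside 28.5%. The median log2 fold change of the 10 genes was -0.36 in AngII against Ctrl and 0.08 in AngII+LY against AngII, where that of all genes was -0.06 and -0.02. Both signs turned with the GC correction, to 0.22 and -0.18, where that of all genes was 0.09 and 0.04. With DESeq2, Jag1 passed in AngII against Ctrl (13.8% of all genes did), Jag2 and Dll4 in AngII+LY against AngII (10.8%), Jag2 and Notch4 in AngII+LY against Ctrl (1.79%) and 0 of 10 in LY against Ctrl (0.110%). With the GC correction, 0 of 10 passed in DESeq2 in AngII+LY against AngII, beside 874 of 19145 genes. Without the 4th AngII library 0 of 10 passed in DESeq2 in AngII against Ctrl, beside 924 of 19246 genes. The AngII group enters the first comparison as the treated and the second as the reference group, so opposite signs of 1 gene in them are not independent.

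The effect of LY272015 with the infusion was also compared with its effect without it. For Jag2 the difference between the effects was 1.84 on the log2 scale (SE 0.41), with an unadjusted p of 0.000543 and an adjusted p of 0.295 in edgeR and 0.0151 in DESeq2, which called 1.1% of all genes. The unadjusted p of edgeR was under 0.05 for Jag2 alone among the 10 genes, and for 13.3% of all genes. The 2 LY mice limit this comparison, and it was not fitted with the GC correction.

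Across the 14 libraries, which share depth, GC slope and tissue make-up, Notch1 and Dll1 had the closest levels of the 45 pairs. Their Pearson r was 0.91 and Spearman rho 0.98, with 0.92 after leaving out the 2 libraries farthest from the median, 0.90 after subtracting group means and 0.88 after the GC correction. No other pair had an r above 0.8, and 27 of the 45 were negative, down to -0.74 for Jag2 with Hey1. Notch1 and Dll1 also had an r of 0.61 and 0.62 with the mean of the 12 endothelial markers, and both had 0.79 after subtracting group means. That endothelial mean itself ran from 12.33 to 13.37 in Ctrl, from 12.88 to 13.23 in AngII, and from 12.64 to 13.35 in AngII+LY. Relative to it and without the GC correction, Dll1 was at log2 -2.13 to -1.59 in Ctrl and -3.43 to -2.14 in AngII, ranges that almost touch. The share of all genes that separate on this scale was not computed. The LY mice, at -2.21 and -2.26, lay within the AngII range, and the AngII+LY mice, at -3.68 to -1.65, overlapped with both. Notch1 was at -0.94 to -0.36 in Ctrl and -2.49 to -0.66 in AngII, with overlap. With the GC correction the mean of Dll1 on this scale was -1.87 ± 0.31 (SD, n = 4) in Ctrl and -2.36 ± 0.40 in AngII.

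**Figure D4:**
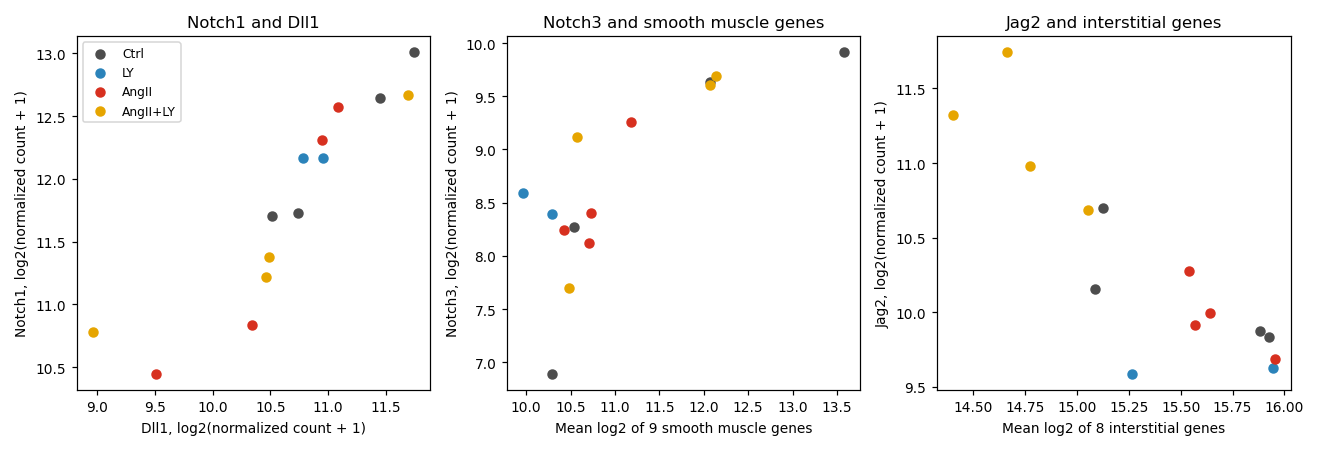
Each point is 1 of the 14 libraries, coloured by group, on log2(normalized count + 1) scales: Notch1 against Dll1 (left), Notch3 against the mean of 9 smooth muscle and pericyte markers (middle) and Jag2 against the mean of 8 interstitial markers (right). The Pearson r is 0.91, 0.78 and -0.87, and on the right the 4 AngII+LY libraries lie at the lowest interstitial means.

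The tested genes whose levels followed each Notch gene most closely, by Pearson r over the 14 libraries, differed between the members. For Notch1 they were AI467606, Smad6 and Icosl (each 0.97), and for Dll1 Vsir (0.96), Mindy4 (0.95) and Prrt4 (0.94). For Notch4 they were Upp1 (0.88), Slc26a10 (0.87) and Sox17 (0.87), the last an endothelial transcription factor whose r was 0.96 after the GC correction. For Notch3 they were Adcy5 (0.82), Ppef1 (0.82) and the smooth muscle gene Tagln (0.80), which is 1 of the 9 smooth muscle markers. For Notch2 they were the WNT modulator Sfrp2 (0.94), Txndc5 (0.94) and Poldip3 (0.93), and for Jag1 Tspan12 (0.95), Peli1 (0.94) and Nckap1 (0.94). Jag2 was followed by Rtl8b (0.95), Ankrd37 (0.93) and Gm12254 (0.89), Dll4 by Auh (0.90), Gzmm (0.89) and Adora2a (0.89), and Hey1 by Gprasp2 (0.94), 6330403K07Rik (0.89) and Ecm2 (0.88). The genes closest to Hes1, BE692007 (0.85), Gm47813 (0.83) and Gm21596 (0.82), had an r of -0.20, 0.30 and 0.17 with it after the GC correction.

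The rest of the pathway was covered by a list of 52 genes, of which 49 were tested. Dll3 and Dlk2 were too low, and Hes5 was at 0 in every library. In AngII against Ctrl 20 of the 49 had an unadjusted p under 0.05 in edgeR, 10 higher and 10 lower, beside 25.2% of all genes, with a median log2 fold change of -0.16. Of the GC-corrected values 6 did, 4 higher and 2 lower, beside 14.2%, and the median was 0.09, beside 0.09 over all genes. For AngII+LY against AngII it was 13, 2 higher and 11 lower, beside 22.5% and with a median of -0.06, and 7 after the correction, 1 higher and 6 lower, beside 15.5%. It was 5 in AngII+LY against Ctrl, all lower (6.14% of all genes), and 3 after the correction, beside 15.2% of all genes in either direction. In LY against Ctrl it was 1 (1.39%). None of the 49 passed the adjusted threshold in edgeR, and DESeq2 called 10, 6, 0 and 0 in these comparisons, beside 13.8%, 10.8%, 1.79% and 0.110% of all genes.

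Among the 10 genes of receptor cleavage, 5 had an unadjusted p under 0.05 in AngII against Ctrl, with 3 higher, beside 25.2% of all genes, and 1 did after the GC correction, beside 14.2%. Adam10, the protease of the first ligand-dependent cut, had counts of 4471, 4687, 8085 and 9660 in Ctrl, 7819 and 8606 in LY, 10659, 15591, 13486 and 21719 in AngII, and 10839, 5474, 5323 and 5362 in AngII+LY. Every AngII mouse was above every Ctrl mouse, and of the AngII+LY mice only the first reached the AngII range. AngII and Ctrl did not overlap for 15.0% of all tested genes. Pathway genes are named here for their small p in these comparisons, so groups that stand apart add no separate support. Whether their GC-corrected groups stand apart is not given here. The log2 difference of Adam10 was 1.19 (SE 0.32) in AngII against Ctrl and -1.19 (SE 0.32) in AngII+LY against AngII, with adjusted p of 0.0619 and 0.0713 in edgeR and 0.00398 and 0.00674 in DESeq2. After the GC correction these were 0.66 and -0.73 relative to all genes. Aph1b, a gamma-secretase subunit, had counts of 1061 to 1925 in Ctrl, 1825 and 1920 in LY, 1724 to 2531 in AngII, and between 799 and 952 in AngII+LY. Its AngII+LY mice were below all other mice. AngII+LY did not overlap with AngII for 11.1% of all tested genes, and with Ctrl for 8.16%. The log2 difference of Aph1b was 0.55 (SE 0.21) in AngII against Ctrl and 0.04 after the correction relative to all genes. The log2 difference of AngII+LY against AngII was -1.29 (SE 0.22), with an adjusted p of 0.0568 in edgeR and 2.06e-05 in DESeq2. After the correction it was -0.83 relative to all genes. Aph1b has a near-identical copy, Aph1c, so its counts are uncertain. Psen2, a catalytic gamma-secretase subunit, had a log2 difference of -0.81 (SE 0.26, edgeR adjusted p 0.0867) in AngII against Ctrl and -0.42 after the correction, relative to all genes. Psenen, another subunit, had 0.51 (SE 0.20, edgeR adjusted p 0.156) in AngII+LY against AngII and 0.36 after the correction, relative to all genes.

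In the nuclear complex, 2 of 6 genes had an unadjusted p under 0.05 in AngII against Ctrl, both higher, and the same 2 in AngII+LY against AngII, both lower, beside 25.2% and 22.5% of all genes. With the GC correction it was 1 of 6 in each, beside 14.2% and 15.5% of all genes. Rbpj, which encodes the DNA-binding partner of Notch, had a log2 difference of 0.51 (SE 0.20, edgeR adjusted p 0.143) in the first and -0.53 (SE 0.20, edgeR adjusted p 0.15) in the second, and 0.19 and -0.20 after the GC correction relative to all genes. Maml2, a Mastermind co-activator, had 0.54 (SE 0.21, edgeR adjusted p 0.127) and -0.78 (SE 0.21, edgeR adjusted p 0.0713), and 0.49 and -0.67 after the correction relative to all genes. Of the 5 corepressor genes, Ncor1 and Kdm5a had 0.54 and 0.62 in AngII against Ctrl and -0.59 and -0.52 in AngII+LY against AngII, and Spen had -0.71 in the first. After the correction, relative to all genes, Ncor1 was at 0.20 and -0.26, Kdm5a at 0.09 and -0.01, and Spen at -0.22, and 0 of the 5 had an unadjusted p under 0.05 in either comparison.

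Of the 9 other targets tested, 2 had an unadjusted p under 0.05 in AngII against Ctrl, both lower, where 11.7% of all genes were. With the GC correction there was 1 higher and 1 lower, beside 14.2% of all genes in either direction. Heyl, a HEY family repressor of smooth muscle cells and pericytes, had counts of 9717, 3285, 2553 and 2380 in Ctrl, 1993 and 2885 in LY, 2026, 2263, 1164 and 751 in AngII, and 1737, 3438, 2010 and 2998 in AngII+LY. Every AngII mouse was below every Ctrl mouse (these groups did not overlap for 15.0% of all tested genes). The highest Ctrl mouse was the one with the highest smooth muscle markers. The log2 difference of Heyl was -1.53 (SE 0.46, adjusted p 0.0812 in edgeR and 0.0098 in DESeq2), and -1.13 after the correction relative to all genes. Hes6 had -0.58 (SE 0.24) and -0.09 after the correction relative to all genes, and Snai2, a mesenchymal transcription factor, had -0.67 (SE 0.27, edgeR adjusted p 0.166) in AngII+LY against AngII and -0.30 after it.

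Among the other ligands and the enzymes that act on ligands, Dlk1, a non-canonical ligand known as preadipocyte factor, was at 64, 30, 92 and 194 normalized counts in Ctrl, 110 and 42 in LY, 0, 1, 0 and 7 in AngII, and 0, 1, 26 and 4 in AngII+LY. Both infused groups were below all non-infused mice (edgeR unadjusted p 0.00177, adjusted p 0.0599 in AngII against Ctrl). Of all tested genes, 15.0% did not overlap in AngII against Ctrl and 8.16% in AngII+LY against Ctrl. The summed counts of the 5 adipocyte markers were 0.00976% to 0.0208% of Ctrl libraries and 0.00148% to 0.0051% of AngII libraries, and their part in the Dlk1 difference was not tested. Mib1, which ubiquitinates ligands, had 0.61 (SE 0.18) in AngII against Ctrl and -0.49 (SE 0.18) in AngII+LY against AngII, and 0.00 and 0.06 after the correction relative to all genes. In AngII against Ctrl Mib2 had -0.72 (SE 0.31) and -0.28. Neurl1b had 1.36 (SE 0.58, edgeR adjusted p 0.182) in AngII+LY against AngII and 1.01 after the correction relative to all genes. Of the genes that glycosylate the receptors, Poglut1 had 0.59 (SE 0.25) in AngII against Ctrl and -0.95 (SE 0.26, adjusted p 0.0716 in edgeR and 0.00941 in DESeq2) in AngII+LY against AngII, and 0.40 and -0.68 after the correction relative to all genes. Mfng and Rfng, the Fringe enzymes, had -0.98 (SE 0.42) and -0.53 (SE 0.22) in AngII against Ctrl, and -0.55 and -0.01 after the correction relative to all genes. Of the turnover genes, the ubiquitin ligase Itch had 0.88 (SE 0.32) in AngII against Ctrl and -0.95 (SE 0.32) in AngII+LY against AngII, and Dtx2 had -0.87 (SE 0.30) in AngII against Ctrl. After the correction, relative to all genes, Itch was at 0.35 and -0.50 and Dtx2 at -0.45. Then 0 of the 8 turnover genes had an unadjusted p under 0.05 in either comparison, beside 14.2% and 15.5% of all genes.

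**Figure D5:**
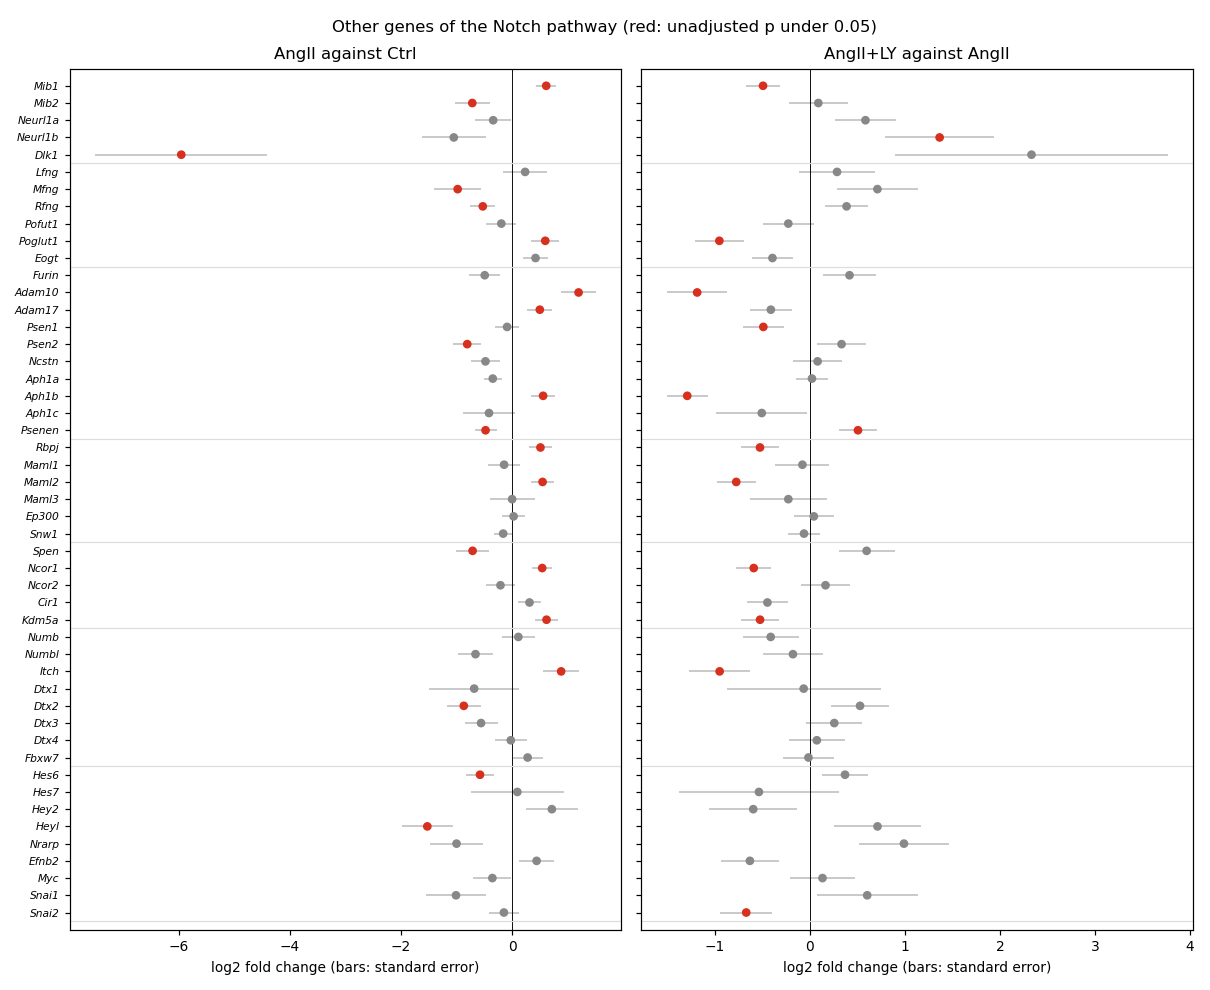
Log2 fold changes (points) with standard errors (bars) of the 49 tested pathway genes, grouped by role from top to bottom: other ligands and ligand ubiquitin ligases, glycosylation, cleavage, nuclear complex, corepressors, turnover and other targets. Red marks an unadjusted edgeR p under 0.05: 20 genes in AngII against Ctrl and 13 in AngII+LY against AngII.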

How the data were processed

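Bulk RNA-seq of aortic valve leaflets from 14 mice was analysed. The authors checked reads with FastQC 0.12.1, trimmed low-quality sequence, aligned to GRCm39 with HISAT2, counted reads per gene with featureCounts and tested with DESeq2. The submitters' processing notes and the methods give no versions for the last 3. The deposited table is named as normalized, but it holds whole-number counts per gene whose totals differ between libraries, so a count test was used. The labels do not say whether valves were pooled. If they were, p-values would measure only the spread between libraries.

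The 19145 genes whose mean count reached 10 were tested with the quasi-likelihood test of edgeR 4.0.16 (R 4.3.3, its default legacy setting, TMM, 1 fit of all 4 groups without a replicate block, as no pairing is stated). Calls needed an adjusted p (Benjamini-Hochberg) below 0.05 together with a log2 fold change beyond 0.5 in either direction. Each count was divided by its library's TMM size, scaled to a mean of 1, to give the normalized count, and log2 levels use a pseudocount of 1. Gene length, GC content and promoters came from GENCODE vM39 on GRCm39, where 618 genes with 0.0361% of the counts had no match. GC content was corrected by loess (span 0.3) in each library. Alternatives were DESeq2 1.42.0, its size factors in edgeR (RLE), no filter, only the groups compared, the replicate block, limma 3.58.1 on log2 CPM with a prior count of 1, and leaving out each mouse. The legacy FALSE setting of edgeR and DESeq2 with the GC correction or without the 4th AngII library were added after seeing the data. The fits were tested on simulated data with less spread than these data (common dispersion 0.353) and larger changes than most reported here. That test therefore does not show their power in these data. A further promoter sequence is not reported here.

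The members, the pathway and marker lists and the tests were chosen with earlier results of these data known. All members are named. In each role of the pathway list, up to 3 genes with the smallest unadjusted edgeR p under 0.05 are named for AngII against Ctrl and for AngII+LY against AngII, and the 3 genes with the highest Pearson r for each member.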

Additional observations from a re-analysis of the deposited data

Results flagged for a closer look

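Jag2 was singled out because the effect of LY272015 differed between mice with and without the infusion. Opposite signs of the fitted effects were not particular to it. Notch3, for example, had -0.60 on the log2 scale without the infusion and 0.63 with it. For Jag2 the difference between the effects was 1.84 (edgeR unadjusted p 0.000543, adjusted p 0.295, DESeq2 adjusted p 0.0151). It was not fitted with the GC correction. With that correction AngII+LY against AngII was 0.72 and LY against Ctrl -0.44. Without the correction, both LY mice, at 768 and 787 normalized counts, were below all Ctrl mice, and all 4 AngII+LY mice were above all AngII mice. Groups did not overlap for 12% of all tested genes in LY against Ctrl and for 11.1% in AngII+LY against AngII. With the correction the AngII+LY and AngII mice overlapped for Jag2. With 2 LY mice, the effect of LY272015 alone was -0.58 on the log2 scale (SE 0.32, edgeR unadjusted p 0.0882).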

How the results depend on the processing

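The adjusted threshold decided every call. In AngII against Ctrl, 0 members passed in edgeR and 1 in DESeq2. It was 2 in DESeq2 with the GC correction and 0 in DESeq2 without the 4th AngII library. Of all genes, 0, 2648 and 773 of 19145 passed in the first 3 fits, and 924 of 19246 in the last. In AngII+LY against AngII, 0 members passed in edgeR and 2 in DESeq2, with or without the 4th AngII library. It was 0 in DESeq2 with the GC correction, 1 with the legacy FALSE setting and 1 with limma. Of 19145 genes, 0 passed in edgeR, 2062 in DESeq2, 874 in DESeq2 with the GC correction and 176 with legacy FALSE. Without the 4th AngII library DESeq2 called 945 of 19246, and the number for limma is not given here. In AngII+LY against Ctrl, 0 members passed in edgeR and 2 in DESeq2, with or without the GC correction. Of 19145 genes, 0 passed in edgeR, 343 in DESeq2 and 926 in DESeq2 with the GC correction. At an unadjusted p under 0.05, the 2 members in AngII against Ctrl became 4 in DESeq2 and 1 in DESeq2 without the 4th AngII library. Of all genes, 5451 of 19145 and 3710 of 19246 were at this p in these DESeq2 fits. The 3 members in AngII+LY against AngII became 1 with the GC correction and block, beside 2562 of 19145 genes. With the GC correction the pathway list had 6, 7 and 3 genes at this p in place of 20, 13 and 5 in these comparisons. Leaving out 1 mouse gave 0 to 3, 2 to 3 and 3 to 5 members at this p. The 0 came without the 2nd Ctrl mouse, 1 without the 1st or 4th Ctrl or the 3rd or 4th AngII mouse, and the 5 without the 2nd AngII+LY mouse. It also gave 0 to 1 called in AngII+LY against AngII, the 1 (Jag2, edgeR adjusted p 0.041) without the 1st AngII mouse. The numbers of all genes at either threshold in the fits without 1 mouse are not given here. This call can therefore not be read as particular to Jag2.

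Signs of single members turned as follows in the 3 comparisons with an infused group. With the GC correction, alone, with the block and in DESeq2, AngII against Ctrl became 0.25, 0.27 and 0.25 for Notch3, 0.56, 0.52 and 0.57 for Jag2, 0.65, 0.64 and 0.65 for Hes1, and 0.19, 0.21 and 0.19 for Hey1. AngII+LY against AngII became -0.0717, -0.029 and -0.073 for Notch4, -0.10, -0.20 and -0.10 for Dll1, and -0.36, -0.34 and -0.36 for Hes1. Hes1 in AngII against Ctrl was 0.0097 in DESeq2, 0.009 with RLE and 0.0873 in DESeq2 without the 4th AngII library, where Hey1 was 0.0296. In AngII+LY against AngII that fit gave -0.10 for Dll1 and -0.0147 for Hes1, and limma gave -0.0699 for Dll1. The cause was not tested.

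Leaving out 1 mouse turned the sign within these ranges. In AngII against Ctrl it was -0.3123 to 0.0195 for Jag2, -0.1526 to 0.0719 for Hes1 and -0.1888 to 0.0444 for Hey1. In AngII+LY against AngII it was -0.6439 to 0.2642 for Notch1, -0.449 to 0.4071 for Dll1 and -0.0389 to 0.1861 for Hes1. For AngII+LY against Ctrl it was -0.2181 to 0.5393 for Notch3, -0.0509 to 0.3118 for Jag1 and -0.0515 to 0.1206 for Hes1.

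The replicate number as a block gave 3, 2, 3 and 0 members at an unadjusted p under 0.05 in AngII against Ctrl, AngII+LY against AngII, AngII+LY against Ctrl and LY against Ctrl. Of 19145 genes, 4431, 3747, 1906 and 387 were at this p in the same fits. In LY against Ctrl it gave 2 pathway genes in place of 1. The numbers did not pair the mice: 0 of 18 same-numbered pairs had a correlation above 0.1 (-0.128 to 0.09), and 3 of 14 libraries were closest to their own number.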
